A study of Mus musculus with 6 samples.

Results

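The unfolded protein response genes are described here by 10 members: *Ern1*, *Eif2ak3* and *Atf6*, which encode the sensors IRE1α, PERK and ATF6, the transcription factor genes *Xbp1* and *Atf4*, and the target genes *Hspa5*, *Dnajb9*, *Sdf2l1*, *Creld2* and *Herpud1*. A probe set was a member if the platform annotation gave it 1 gene symbol and that symbol was 1 of these 10. This chose 26 of 45037 probe sets, each of which is reported separately. Of the 26 probe sets, 19 passed the filter on low signals and were tested, and 7 did not.

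The samples were 3 mammary tumors of acinar histology from *K14-cre*; *Apc CKO/+* mice on a mixed C57BL/6, 129/S and FVB background, compared with 3 glands of matched age from mice without *cre* (control glands). In the tumor mice the keratin 14 promoter drives Cre recombinase in mammary progenitor cells and in other keratin 14 expressing tissue, and Cre deletes part of the conditional copy of *Apc*, the tumor suppressor that holds down β-catenin. In all 3 tumors the conditional copy was deleted and the second copy of *Apc* was truncated. Each sample is labelled a biological replicate, numbered 1 to 3 within its group. Whether the *cre*-negative controls had 1 or both *Apc* copies conditional, and whether each sample came from its own animal, are not given in the sources used here. The p-values therefore set the difference between groups against the spread among these samples, which may be partly technical. Total RNA of whole tissue was hybridized to Affymetrix mouse arrays, 1 array per sample. The values are MAS 5.0 signals, a linear measure of brightness that the authors scaled to a common level on every array.

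The unfolded protein response adjusts the endoplasmic reticulum (ER) to the load of secreted and membrane proteins. IRE1α splices *Xbp1* mRNA, so that it encodes the active factor XBP1s. PERK phosphorylates eIF2α, which slows translation in general while favoring that of *Atf4*. ATF6 moves to the Golgi and is cut by the site-1 and site-2 proteases, which frees a transcription factor. XBP1s and the freed ATF6 raise the genes of ER chaperones, of the translocon and of ER-associated degradation, the route by which misfolded proteins leave the ER for the proteasome. The mammary epithelium uses this machinery during lactation, when it secretes milk proteins. The array measured mRNA level only. It could not separate spliced from unspliced *Xbp1*, and splicing, phosphorylation and cleavage of the sensors and factors were not measured.

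Tumor arrays correlated with each other at 0.924 or more, control arrays with each other at 0.899 or more, and no tumor array correlated with a control array above 0.807 (Pearson's r of log2 signals over the probe sets tested). Of 26967 probe sets tested with limma, 3160 were called higher and 3940 lower in tumors at an adjusted p under 0.05 (Benjamini-Hochberg over all of them). With all arrays set to an equal median signal in place of the authors' scaling, 5080 were called higher and 3167 lower, and the median log2 fold change of all probe sets was 0.26 in place of 0.03. The make-up of the tissue also differed. Of 9 pan-epithelial genes tested, 8 were higher in tumors, led by *Cldn3* (log2 fold change 3.35), *Cldn7* (3.21) and *Esrp1* (2.58), with a list median of 2.24. All 8 adipocyte genes, 8 of 9 fibroblast genes and 7 of 8 endothelial genes were lower. In these counts *Ovol1* passed the filter only through the tumors, with 91.4, 73.5 and 85.5 units in control glands. The endothelial gene *Vwf* passed only through the control glands, with 91.4, 32.3 and 66.3 units in tumors. Over all genes, with 1 probe set each, 14.4% were higher and 15.8% lower. These are bulk samples, in which fewer cells of a type and less RNA per cell cannot be told apart, and the part of tissue make-up in the results below was not tested.

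Of the 19 member probe sets tested, 6 were called higher and 1 lower in tumors, and 12 were not called. Over all probe sets tested, 11.7% were called higher and 14.6% lower. The 6 higher probe sets were 3 of *Xbp1* and 1 each of *Hspa5*, *Sdf2l1* and *Creld2*, and the lower one was of *Atf6*, so 5 of the 10 members had a called probe set. All 3 tumors lay above all 3 control glands on 8 member probe sets, against 22.5% of all probe sets, and below them on 2, against 21.7%. With 1 probe set per gene, the one with the highest mean log2 signal, 3 of the 10 members were higher (*Xbp1*, *Sdf2l1* and *Creld2*) and 0 lower, beside 14.4% of all genes higher and 15.8% lower. The median log2 fold change of the 10 members was 0.29, beside 0.07 over all genes tested. An exact permutation test of 3 arrays against 3 cannot go below p = 0.1, so the calls rest on the limma fit. Leaving out control gland 3 left 4 of the 7 called probe sets, all higher, and leaving out any other single array gave 5 to 7 calls, counted without regard to which probe sets they were. By the methods' t-test on linear signals, 5 member probe sets passed its own thresholds and 0 passed after Benjamini-Hochberg adjustment, which 91 of all probe sets passed.

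**Figure D1:**
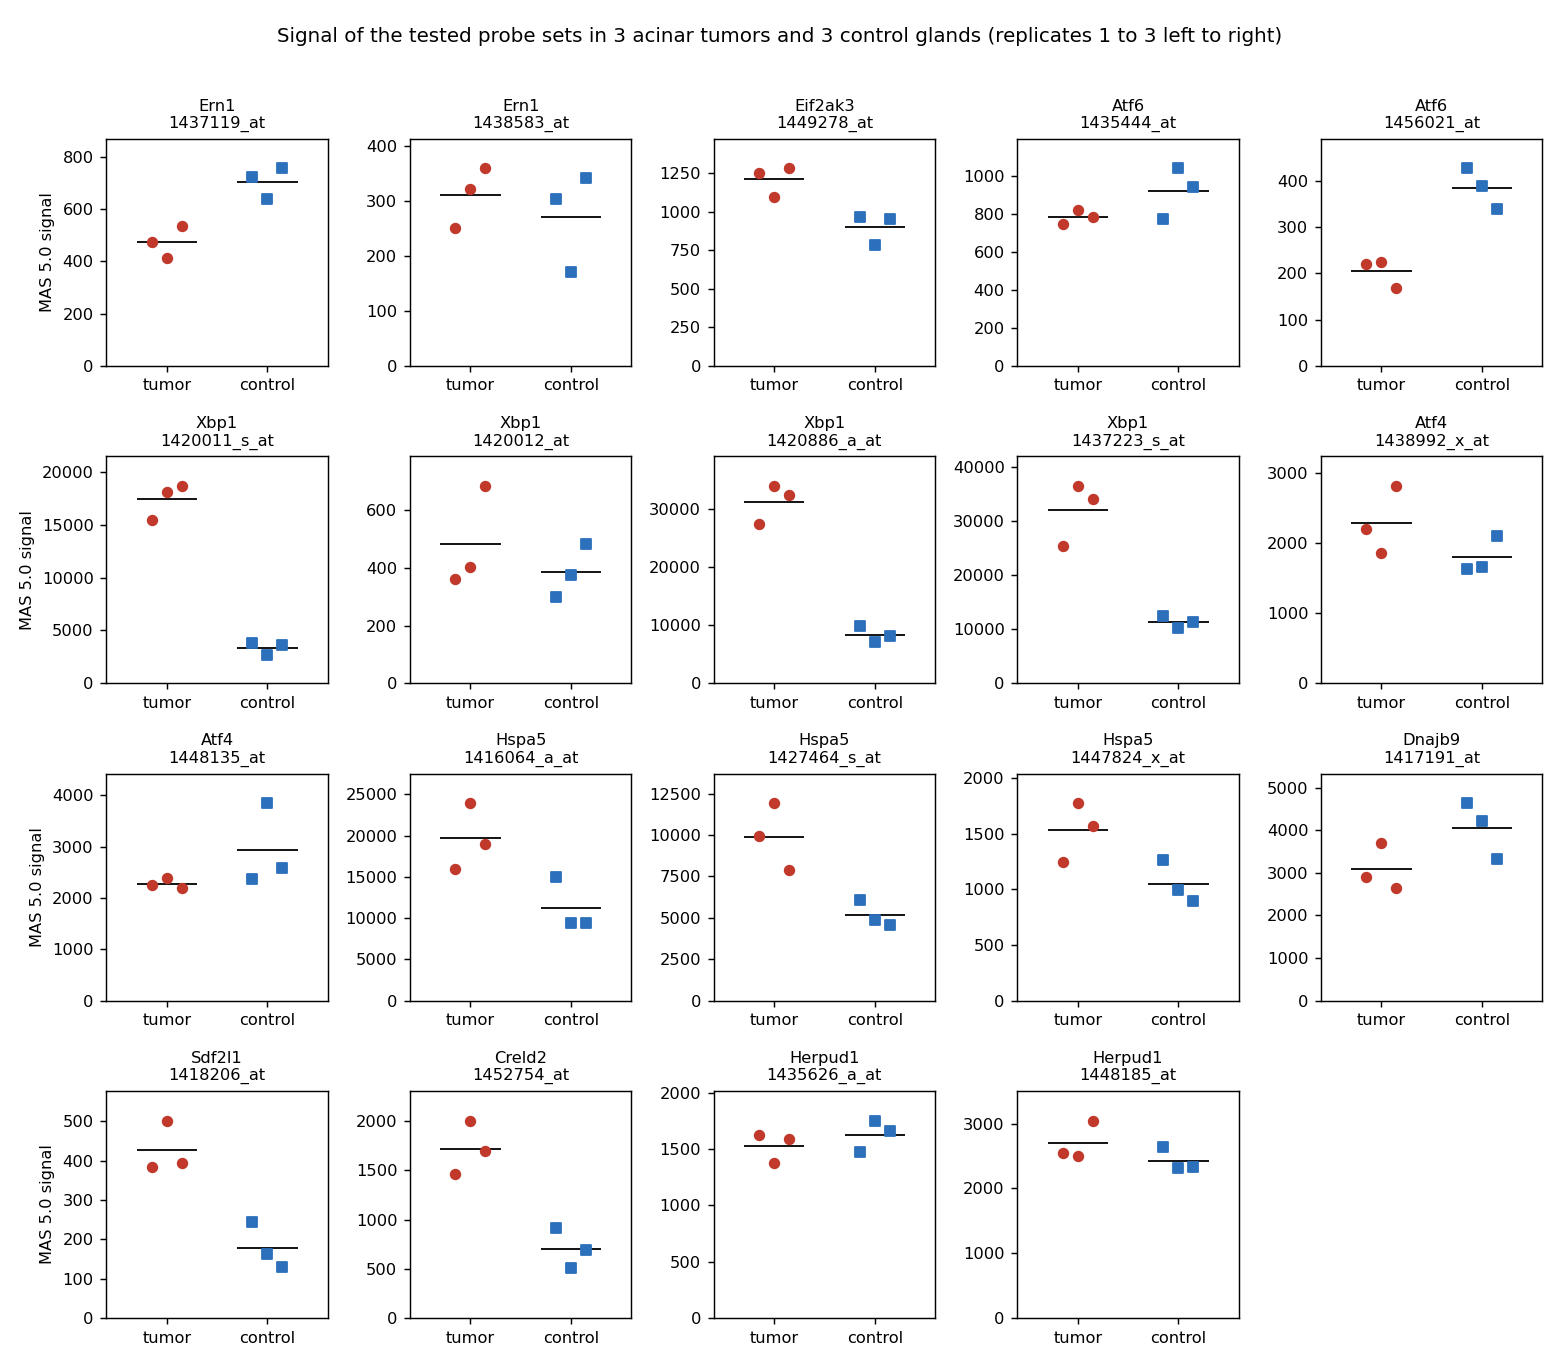
Signal (linear axis from 0, each panel with its own scale) of the 19 tested member probe sets, with the 3 tumors as circles on the left, the 3 control glands as squares on the right and the mean of each group as a line. All tumors lay above all controls on 8 probe sets, most widely for *Xbp1*, and below them on 2, of *Ern1* and *Atf6*.

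Among the sensors no probe set was called higher. *Ern1*, whose product IRE1α is both kinase and endoribonuclease, had 473, 413 and 534 units of signal in tumors 1 to 3 on probe set 1437119_at, against 722, 637 and 754.5 in control glands 1 to 3. Each tumor was below each control gland, yet the log2 fold change of -0.58 ± 0.23 (SE, n = 3 each, 95% interval -1.10 to -0.06) did not pass the adjustment (limma, adjusted p = 0.0977). The other tested *Ern1* probe set, 1438583_at, gave overlapping groups, with 251, 322 and 359 in tumors and 302, 170 and 340.5 in controls. Its log2 fold change was 0.24 (95% interval -0.50 to 0.98, adjusted p = 0.619) and turned to -0.06 without control gland 2. The remaining 3 *Ern1* probe sets stayed below the filter, with no array above 87.5.

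*Eif2ak3* encodes PERK, the kinase that phosphorylates eIF2α. Its tested probe set, 1449278_at, had 1252, 1097 and 1281 units in tumors, against 966, 786 and 950.0 in control glands. The lowest tumor was above the highest control gland, and the difference was small, with a log2 fold change of 0.43 ± 0.22 (95% interval -0.09 to 0.94, adjusted p = 0.196). The other 2 *Eif2ak3* probe sets had signals of at most 29.3 and were not tested.

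*Atf6* was the one sensor with a call, on 1 of its 2 tested probe sets. Probe set 1456021_at had 220, 225 and 168 units in tumors and 427, 389.8 and 338 in control glands, so every tumor was below every control. The log2 fold change was -0.92 ± 0.24 (adjusted p = 0.0252), a 1.89-fold lower signal in tumors. This call did not hold without control gland 1, 2 or 3 or without tumor 3 (adjusted p 0.0540 to 0.0801), nor with equal array medians (-0.68, adjusted p = 0.0774). Probe set 1435444_at had 747, 819 and 782 units in tumors and 773.5, 1038 and 939 in controls. There the groups overlapped and the log2 fold change was -0.22 (95% interval -0.74 to 0.30, adjusted p = 0.518), or 0.02 with equal array medians. The third *Atf6* probe set, 1453288_at, reached 116 at most and was not tested.

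*Xbp1*, the factor downstream of IRE1α, changed most among the members. It is also highly expressed in luminal mammary epithelium and in plasma cells. Probe set 1420011_s_at had 15434, 18122 and 18673 units in tumors and 3764.5, 2643 and 3602 in control glands. The tumor signal was 5.26-fold that of the controls (log2 fold change 2.40 ± 0.24, adjusted p = 0.000540), and the lowest tumor was far above the highest control. Probe set 1420886_a_at had 27367, 34023 and 32453 units in tumors and 9844.5, 7077.5 and 8218 in controls, a 3.75-fold difference (1.91 ± 0.24, adjusted p = 0.00127). Probe set 1437223_s_at had 25302.5, 36480.4 and 34109 units in tumors and 12343, 10219 and 11397 in controls, 2.80-fold (1.48 ± 0.24, adjusted p = 0.00395). On all 3 of these probe sets the groups were clearly apart. Each kept its call without any single array and with every floor, filter and scaling tried. The fourth probe set, 1420012_at, did not show it: 362, 405 and 685 units in tumors overlapped 299, 375 and 483 in controls (log2 fold change 0.30, 95% interval -0.44 to 1.04, adjusted p = 0.536). Probe sets ending in _s_at can bind transcripts of more than 1 gene, whereas those ending in _a_at bind several transcripts of the same gene.

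*Atf4*, the factor downstream of PERK, is controlled largely at the level of its translation, which an array does not see. Probe set 1438992_x_at had 2197.5, 1853 and 2811 units in tumors and 1634, 1659 and 2099 in control glands, with overlapping groups and a log2 fold change of 0.34 (95% interval -0.25 to 0.92, adjusted p = 0.370). Probe set 1448135_at ran in the other direction, with 2258.5, 2387 and 2186 units in tumors and 2370.3, 3844.5 and 2590.4 in controls (log2 fold change -0.33, 95% interval -0.93 to 0.26, adjusted p = 0.380). Control gland 2 was the high value there, and neither probe set was called. The third, 1439258_at, reached 18.5 at most and was not tested.

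**Figure D2:**
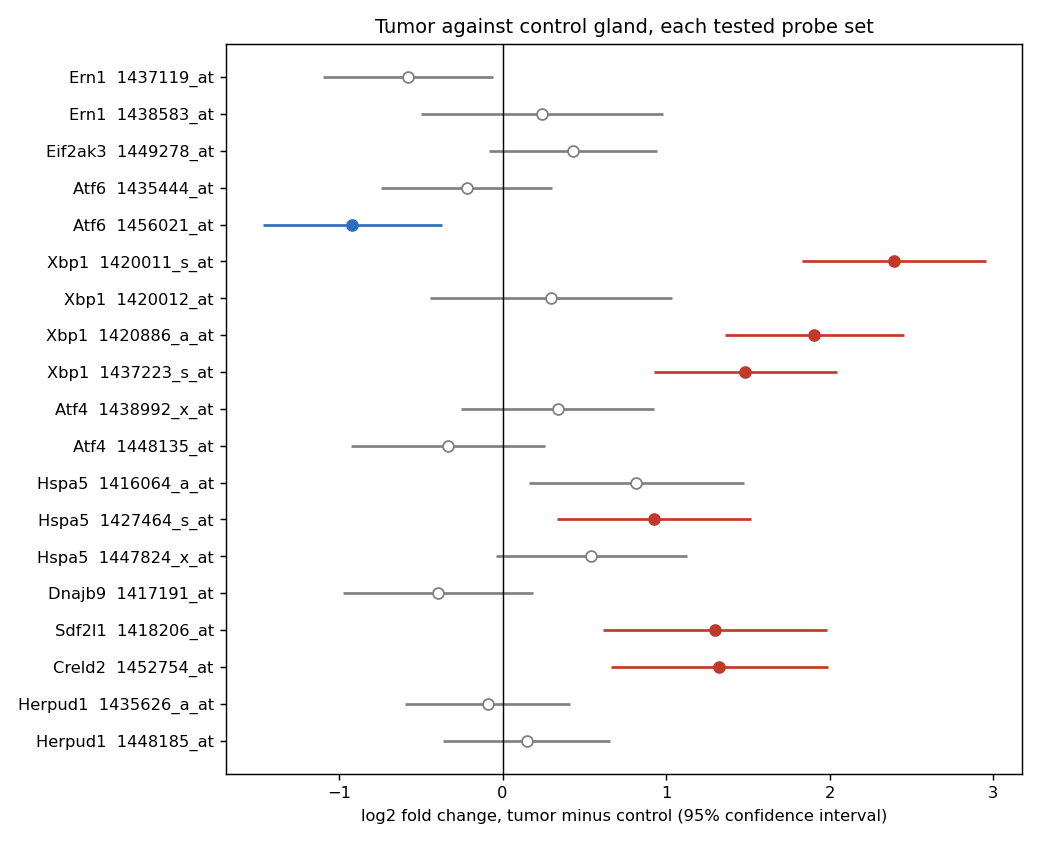
Log2 fold change (tumor minus control, points) with its 95% confidence interval (lines) for the 19 tested member probe sets, from sensors at the top to targets at the bottom. Filled red points were called higher, the filled blue point lower and open points were not called; the 3 called *Xbp1* probe sets, between 1.48 and 2.40, lie farthest to the right.

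The targets are read by XBP1s and ATF6 through short promoter elements known from mammalian cells, so the 250 bases upstream of the transcription start were searched in RefSeq's promoter table (GRCm38.p6), which held 9 of the 10 members. The searched letters, on both strands, were the ER stress response element (ERSE, CCAAT and CCACG with any 9 bases between them), ERSE-II (ATTGG and CCACG with any 1 base between them) and the unfolded protein response element (UPRE, TGACGTGG). The sequences below are shown because they are the promoters of the targets that carry a match and of *Sdf2l1*, which was called without one. They run 5′ to 3′ on the strand of the gene, and capitals mark the match.
Hspa5: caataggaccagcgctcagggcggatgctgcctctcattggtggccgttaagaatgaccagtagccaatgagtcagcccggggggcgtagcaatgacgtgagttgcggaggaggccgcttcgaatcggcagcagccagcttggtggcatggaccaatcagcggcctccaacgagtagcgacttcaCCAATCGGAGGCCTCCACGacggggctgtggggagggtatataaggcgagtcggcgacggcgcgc
Creld2: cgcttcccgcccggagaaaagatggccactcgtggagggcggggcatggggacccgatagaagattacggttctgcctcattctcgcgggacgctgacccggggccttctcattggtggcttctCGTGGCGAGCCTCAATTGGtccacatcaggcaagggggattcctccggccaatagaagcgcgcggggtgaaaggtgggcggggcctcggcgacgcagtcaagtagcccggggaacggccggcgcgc
Herpud1: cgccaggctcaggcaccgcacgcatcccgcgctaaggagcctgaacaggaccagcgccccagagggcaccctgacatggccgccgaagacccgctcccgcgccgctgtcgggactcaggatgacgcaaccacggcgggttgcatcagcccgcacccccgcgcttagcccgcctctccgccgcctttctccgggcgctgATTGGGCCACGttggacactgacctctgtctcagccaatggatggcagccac
Sdf2l1: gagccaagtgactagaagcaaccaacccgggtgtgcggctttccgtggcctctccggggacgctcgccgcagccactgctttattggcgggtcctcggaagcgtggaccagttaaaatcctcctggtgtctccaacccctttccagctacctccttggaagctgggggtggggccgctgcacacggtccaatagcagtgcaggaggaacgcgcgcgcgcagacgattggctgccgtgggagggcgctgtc
The *Hspa5* window is chr2:34771840-34772089 (plus strand), with an ERSE from base -65 to -47 before the start. The *Creld2* window is chr15:88819396-88819645 (plus strand), with an ERSE on the opposite strand from -126 to -108, and *Alg12*, the neighbor on its other side that is read the other way, was not called (0.50, adjusted p = 0.219). The *Herpud1* window is chr8:94386179-94386428 (plus strand), with an ERSE-II from -52 to -42. The *Sdf2l1* window is chr16:17132384-17132633 (minus strand). None of these 3 sets of letters was in the windows of *Sdf2l1*, *Xbp1*, *Ern1*, *Eif2ak3*, *Atf4* or *Dnajb9*, which says only that those exact letters are not there. Of all 32851 windows searched, 0.113% held the ERSE, 0.0304% the ERSE-II and 0.563% the UPRE.

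*Hspa5* encodes BiP, the abundant ER chaperone that binds the lumenal side of the sensors. On probe set 1427464_s_at tumors had 9941, 11925 and 7871 units and control glands 6096, 4879.8 and 4579. All tumors were above all controls, by 1.90-fold (log2 fold change 0.93 ± 0.26, adjusted p = 0.0320). The call was lost without control gland 2 or 3 or without tumor 1 or 2 (0.78 to 0.91, adjusted p 0.0721 to 0.112). Probe set 1416064_a_at had 15996, 23918 and 19029.7 units in tumors and 14965, 9459 and 9372 in controls. The groups again did not overlap, with a log2 fold change of 0.82 ± 0.29 that missed the threshold (95% interval 0.16 to 1.48, adjusted p = 0.0696) and passed it without control gland 1 (1.04, adjusted p = 0.0464) or with equal array medians (1.06, adjusted p = 0.0237). Probe set 1447824_x_at had 1247, 1772 and 1564 units in tumors and 1258.5, 995 and 891 in controls, with tumor 1 below control gland 1 (log2 fold change 0.54, 95% interval -0.04 to 1.13, adjusted p = 0.155).

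*Sdf2l1* encodes an ER-resident partner of the BiP cycle, and *Creld2* an ER protein with disulfide isomerase activity. The single *Sdf2l1* probe set, 1418206_at, had 383, 502 and 394 units in tumors and 245, 161 and 129 in control glands. Tumors were 2.46-fold higher (log2 fold change 1.30 ± 0.30, adjusted p = 0.0152), a call that was lost without tumor 2 (1.18, adjusted p = 0.0569) or without control gland 3 (1.09, adjusted p = 0.0593). The single *Creld2* probe set, 1452754_at, had 1467, 2008 and 1694.5 units in tumors and 914, 503 and 690.3 in controls. Tumors were 2.51-fold higher (log2 fold change 1.33 ± 0.29, adjusted p = 0.0124), and this call held without any single array. For both genes each tumor was above each control gland. With no filter on low signals *Sdf2l1*, *Creld2* and *Hspa5* 1427464_s_at missed the threshold (adjusted p = 0.0616, 0.0521 and 0.0623).

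The other targets were not called. *Dnajb9* encodes ERdj4, a BiP co-chaperone that is a well-known XBP1s target. Its probe set, 1417191_at, had 2906.5, 3714 and 2649 units in tumors and 4638.5, 4226 and 3319 in control glands, with tumor 2 above control gland 3. Its log2 fold change was -0.40 (95% interval -0.98 to 0.19, adjusted p = 0.289), so the interval leaves out an increase of the size measured for *Sdf2l1* or *Creld2*. *Herpud1* encodes an ER membrane protein of the degradation machinery. Probe set 1448185_at had 2539, 2504 and 3046 units in tumors and 2637.5, 2314 and 2337 in controls (log2 fold change 0.15, 95% interval -0.36 to 0.66, adjusted p = 0.665). Probe set 1435626_a_at had 1621, 1377 and 1585 units in tumors and 1473.5, 1751 and 1656 in controls (-0.09, 95% interval -0.60 to 0.42, adjusted p = 0.796), a value that was 0.15 with equal array medians. On both *Herpud1* probe sets the groups overlapped.

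Within each group 1 array was highest for several chaperone targets. Tumor 2 was the highest tumor and control gland 1 the highest control gland on all 6 tested probe sets of *Hspa5*, *Dnajb9*, *Sdf2l1* and *Creld2*, genes grouped after their values were seen, and 3 of the 6 probe sets are of *Hspa5*. Over the 19 tested member probe sets tumor 2 was the highest tumor on 11 and control gland 1 the highest control on 12, while over all probe sets these arrays were highest on 32.5% and 38.3%. Control gland 1 also had the highest summed signal of the plasma cell genes tested, though not of each gene. *Ighm* was highest in control gland 2 (5502.5, 5786 and 2717 units in control glands 1 to 3). *Sdc1* was lowest in control gland 1 (606, 718 and 760 units). The other plasma cell genes tested were highest in control gland 1 among the control glands. *Jchain*, the joining chain of secreted antibodies, had 141, 498 and 106 units in tumors 1 to 3 and 23972, 2496 and 1275 in control glands 1 to 3. The summed signal of the 7 plasma cell genes tested was 2944 to 5295 in tumors and 5991 to 33383 in control glands. Among them 4 were lower in tumors, beside 15.8% of all genes, with *Ighm* at a log2 fold change of -4.42. *Irf4* was below 50 on every tumor array, and its tumor values were raised to the floor of 50. It passed the filter only through the control glands (656, 130 and 312 units). *Sdc1* (2.11), named after its value was seen and also an epithelial gene, was higher. *Derl3*, a degradation gene named after its values were seen, had 409, 679 and 820 units in tumors and 523, 28.9 and 94.1 in controls, and at a log2 fold change of 2.18 was not called (adjusted p = 0.0737). The value of 28.9 was raised to the floor of 50 before this fold change was taken, so its size depends on the floor. Without control gland 1, 7 member probe sets were called, all of them higher, with *Hspa5* 1416064_a_at gained and *Atf6* 1456021_at lost. The summed milk gene signal overlapped, at 58264 to 145294 in tumors and 2748 to 85570.1 in control glands, and none of 7 milk and alveolar genes was called (the lowest adjusted p was 0.107, for *Elf5*). Their median log2 fold change was 1.75, beside 0.07 over all genes tested. The spread was wide, with a 95% interval of -1.63 to 6.86 for *Csn2* (2.61), the largest change. The missing calls therefore do not show that these genes were unchanged.

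**Figure D3:**
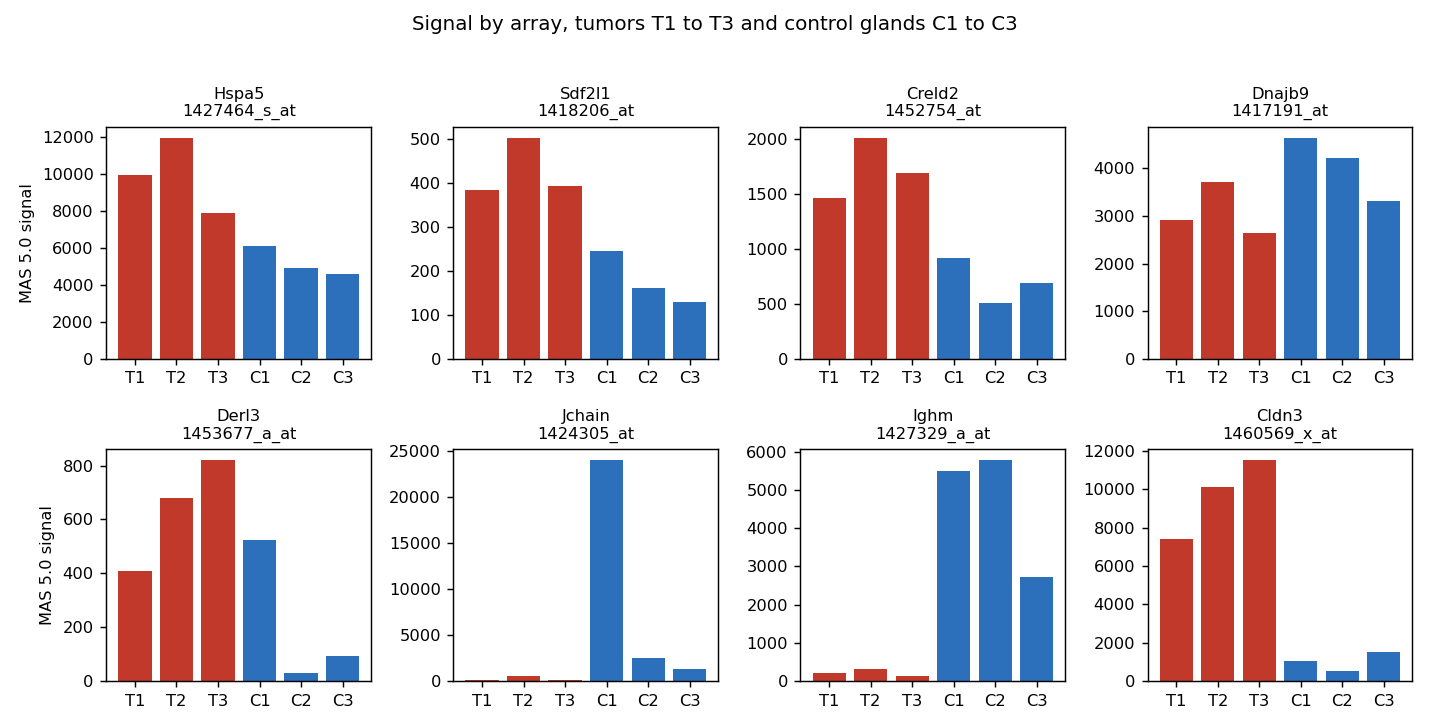
Signal (linear axes from 0, 1 bar per array) of 4 chaperone targets, of *Derl3*, of the plasma cell genes *Jchain* and *Ighm* and of the epithelial gene *Cldn3* in tumors T1 to T3 (red) and control glands C1 to C3 (blue). Tumor 2 and control gland 1 were highest within their groups for the 4 targets, and *Jchain* reached 23972 units in control gland 1.

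The wider pathway was read from 4 lists, with 1 probe set per gene. The 12518 genes tested had a median log2 fold change of 0.07. With equal array medians the median over all probe sets was 0.26, the value to set beside the list medians under that scaling. Of 17 ER chaperones and folding enzymes, 8 rose, 0 fell and 9 were not called, beside 14.4% higher and 15.8% lower over all genes. The median was 0.81, or 1.05 with equal array medians. All 17 had a log2 fold change above 0, a share that was not counted over all genes. The called genes with the largest increases were *Sec61b* (translocon subunit, 1.46 ± 0.27, adjusted p = 0.00666), *P4hb* (protein disulfide isomerase, 1.27 ± 0.30, adjusted p = 0.0167), *Sec63* (translocation, 1.13 ± 0.34, adjusted p = 0.0438) and *Calr* (calreticulin, a lectin chaperone, 1.00 ± 0.26, adjusted p = 0.0240). *Sec61b* had 7846, 12363 and 7315 units in tumors and 3564, 2980.2 and 3192 in control glands, with no overlap. *Dnajc10* (0.02, adjusted p = 0.955) and *Ero1a* (0.22, adjusted p = 0.543), of disulfide reduction and formation, were farthest from a call. The count was 14 with equal array medians, and it was 4 without control gland 1, 3 without control gland 2, 1 without control gland 3, 1 without tumor 2 and 3 without tumor 3.

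Of 15 genes that process or regulate the sensors, 5 rose, 1 fell and 9 were not called, beside 14.4% higher and 15.8% lower over all genes. The median was 0.42, or 0.66 with equal array medians. The increases included *Creb3l4* and *Creb3l1*, relatives of ATF6 that are released by the same proteases, at 2.38 and 1.28 (adjusted p = 0.0254 and 0.0363). *Creb3l4* had 118, 533 and 631 units in tumors and 22.1, 57.2 and 97.9 in control glands. All 3 control values were below 100, so it passed the filter only through the tumors, and the value of 22.1 was raised to the floor of 50 before the fold change was taken. *Tmbim6*, a negative regulator of IRE1α, was at 1.13 (adjusted p = 0.0157), and *Sil1*, the nucleotide exchange factor of BiP, at 0.90 (adjusted p = 0.0231). *Map3k5*, the kinase ASK1 downstream of IRE1α, was lower (-0.92, adjusted p = 0.0450). *Atf6b* (0.01, adjusted p = 0.987) and *Dnajc3* (0.21, adjusted p = 0.584) were farthest from a call. None of these calls held without control gland 1, and 2 were made without control gland 2 or without tumor 2, and 1 without control gland 3 or without tumor 3.

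Of 15 genes of ER-associated degradation, 2 rose, 1 fell and 12 were not called, no more than the background of 14.4% higher and 15.8% lower. The median was 0.43, or 0.67 with equal array medians. *Edem3* (1.04 ± 0.23, adjusted p = 0.0136) and *Edem2* (0.90 ± 0.27, adjusted p = 0.0409), which help mark misfolded glycoproteins, were higher. *Derl1*, a channel component, was lower (-1.14 ± 0.22, adjusted p = 0.00791), with 3779, 4291 and 4793 units in tumors and 9452.5, 9733 and 8956 in controls. *Erlec1* (0.03, adjusted p = 0.950) and *Herpud2* (-0.18, adjusted p = 0.622) were farthest from a call.

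Of 22 genes of the PERK and ATF4 branch and the wider integrated stress response, 3 rose, 4 fell and 15 were not called, close to the background of 14.4% higher and 15.8% lower over all genes. The median was 0.02, or 0.25 with equal array medians, where the median over all probe sets was 0.26. *Atf3*, a stress-induced factor, had 649, 778 and 852 units in tumors and 173, 360.4 and 251 in control glands (1.59 ± 0.31, adjusted p = 0.00815). *Eif2ak2*, the double-stranded RNA sensing eIF2α kinase PKR (1.54, adjusted p = 0.00429), and *Shmt2*, of mitochondrial one-carbon metabolism (1.20, adjusted p = 0.0174), were also higher. The genes that fell were *Stc2*, a secreted glycoprotein (-2.20, adjusted p = 0.0103), *Chac1*, which degrades glutathione (-1.98, adjusted p = 0.0312), *Eif4ebp1*, an inhibitor of translation initiation (-1.02, adjusted p = 0.0249), and *Asns*, asparagine synthetase (-0.78, adjusted p = 0.0410). *Chac1* had 168, 143 and 135 units in tumors and 319, 1530.3 and 406 in control glands, with control gland 2 far above the others. *Ddit3*, the factor CHOP, named after its values were seen, was at -0.75 (95% interval -1.37 to -0.12, adjusted p = 0.0785). *Nupr1* (-0.25, adjusted p = 0.792) and *Trib3* (-0.17, adjusted p = 0.757) were farthest from a call. Without control gland 3 or tumor 3 the count of calls was 4 in place of 7, and without tumor 1 it was 3.

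**Figure D4:**
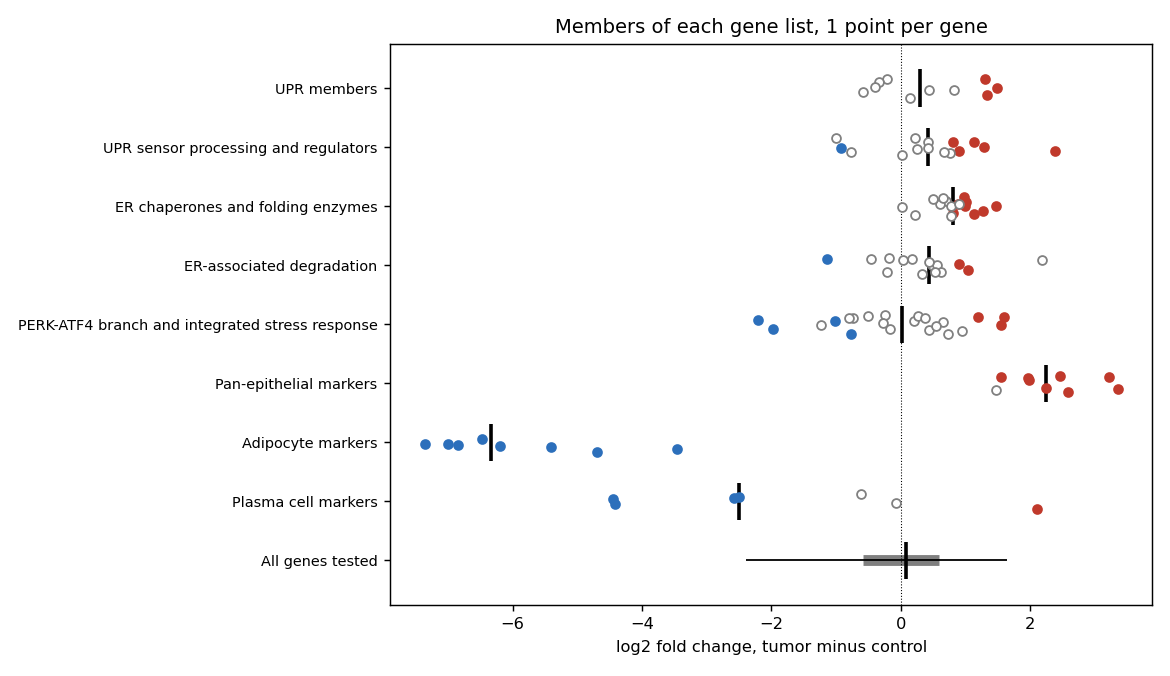
Log2 fold change (tumor minus control) of each gene, 1 point per gene, in the members, the 4 pathway lists and 3 marker lists, with list medians as black bars and the bottom row giving the median, the quartiles (thick line) and the 5th to 95th percentiles (thin line) of all 12518 genes. Filled red points were called higher, filled blue points lower, and open points were not called. All 17 chaperones lie above 0, a share that was not counted over all genes. The median of the PERK and ATF4 list is 0.02 (0.25 with equal array medians, beside 0.26 over all probe sets).

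Among the genes whose promoter held an ERSE, 14 were tested, and 2 were higher (*Calr* and *Creld2*), 1 was lower (*Adcy3*, -2.19, adjusted p = 0.00643) and 11 were not called. The share higher was close to the background of 14.4%, and 15.8% of all genes were lower. The median log2 fold change of the 14 genes was 0.65, beside 0.07 over all genes. The 11 uncalled genes included ER chaperones counted above, *Hsp90b1* at 0.69 (adjusted p = 0.0569), *Pdia6* at 0.78 (adjusted p = 0.0982) and *Canx* at 0.60 (adjusted p = 0.0749). They also included *Acacb* at -1.16 (adjusted p = 0.119) and *Syvn1* at -0.46 (adjusted p = 0.382), the uncalled genes below 0, and *Dnajc3* at 0.21 (adjusted p = 0.584). Of 6 tested genes with an ERSE-II, *Herpud1* among them, 0 were called by limma. Of 94 tested genes with a UPRE, 8 were higher and 14 lower, beside 14.4% higher and 15.8% lower over all genes. Their median was 0.08, close to the 0.07 over all genes.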

How the data were processed

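Total RNA of 3 acinar tumors and 3 control mammary glands was hybridized to 1 array each. The deposited values are linear intensity values, which the authors computed by MAS 5.0 (software version not given here). They scaled each array to a common target, so that the trimmed mean signal was 498.1 to 498.4 on every array. The authors' detection calls were not used.

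Of 45101 probe sets, 64 controls were left out. The platform annotation gave 34945 probe sets 1 symbol, 932 several and 9160 none, and only those with 1 symbol stand for genes. A floor of 50 was set on the signals before taking log2, and the 26967 probe sets that reached 100 on 3 or more arrays were kept. The number of arrays and the brightness over background limit the precision. Groups were compared by limma 3.58.1 (functions lmFit and eBayes, R 4.3.3), 2-sided, with Benjamini-Hochberg adjustment over all kept probe sets and a threshold of 0.05 with no fold limit. Every adjusted p in the text is from limma unless named otherwise, intervals are at 95%, and a fold is on the floored log2 scale. Steps were tested on simulated data.

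The 10 members and the 12 lists (142 symbols, of which 136 matched the annotation) were chosen with earlier results of these data known. The rule named every member, and for each pathway list up to 4 called genes with the largest increase, up to 4 with the largest decrease and the 2 with the highest adjusted p, and at most 3 genes of each marker list. *Derl3*, *Ddit3*, *Sdc1*, *Elf5*, *Ovol1*, *Vwf*, *Alg12* and the other genes with a promoter element were named after their values were seen. The settings varied were the floor (16 or 100, or 50 added to the signal instead), the scaling (quantile or equal array medians), the filter (none, or 200), the variance model (with a trend), a block for replicate number, the arrays (each left out), the probe sets (no _x_at, 1 per gene, or their mean) and the test (the methods' t-test, with a statistic of at least 4.5 and a ratio of at least 2).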

Additional observations from a re-analysis of the deposited data

How the results depend on the processing

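The 3 called *Xbp1* probe sets lost their call only to the methods' t-test after Benjamini-Hochberg, and *Creld2* to that and to no filter. Where 7 member probe sets were called, the count was 4 with no filter, 3 with 1 probe set per gene and 0 with the methods' t-test after Benjamini-Hochberg, where 10 member probe sets had an unadjusted p under 0.05, and leaving out 1 array gave a count of 4 to 7, not always of the same probe sets. Over all probe sets the 7100 calls became 4556 with no filter, 4143 with 1 probe set per gene, 2978 with the methods' t-test at its thresholds and 91 after Benjamini-Hochberg, and leaving out 1 array gave 4628 to 6201. The 8 chaperone calls became 14 with equal array medians, 5 with no filter and 1 to 6 with 1 array left out. The 6 regulator calls became 2 with no filter and 0 to 4 with 1 array left out, and the 7 calls of the PERK and ATF4 branch 4 and 3 to 6. Directions turned for *Atf6* 1435444_at (0.019) and *Herpud1* 1435626_a_at (0.15) with equal array medians, and for *Ern1* 1438583_at with 1 array left out (-0.063 to 0.44). The cause of these changes was not tested. Some settings also had fewer samples or other numbers of probe sets. The replicate numbers showed no clear pairing of the samples: deviations of same-numbered arrays from their group means correlated at -0.21, -0.01 and 0.09. With 3 arrays per group these values cannot exclude a pairing. With the replicate number as a block, 6 member probe sets, 2 regulators and 2 chaperones were called, and 5837 of all probe sets. The member call lost was *Hspa5* 1427464_s_at (adjusted p = 0.0546).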
